A study of Rattus norvegicus with 31 samples.

Results

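Liver RNA of 4 rats given thiacloprid (THI) together with clothianidin (CTD) was compared directly with liver RNA of 3 rats given CTD alone at its full dose. The THI+CTD rats received 54 mg/kg bw/day THI and 134 mg/kg bw/day CTD, and the CTD rats received 288 mg/kg bw/day CTD. These 7 libraries belong to a series of 31, and the comparison covered all 19904 genes with a sum of at least 2 raw counts over the 31 libraries, out of 26312 genes in the count table. The study asked how the liver responds to 3 pesticides, among them the azole fungicide imazalil (IMZ), alone and in pairs. All animals were young adult female Wistar rats (Crl:WI) dosed daily by oral gavage for 28 days with the compounds suspended in aqueous carboxymethyl-cellulose, and the 8 control rats received this vehicle only. The other groups, of 4 rats each, were given THI at 108, IMZ at 93, THI+IMZ at 54 and 46, or IMZ+CTD at 46 and 135 mg/kg bw/day. RNA was sequenced in the high-dose groups only. The study's dosing scheme records that at least 1 rat of the CTD high-dose group was killed in moribund condition, and the group is represented here by 3 rats. The 2 groups differ both in the presence of THI and in the amount of CTD, so the 2 differences cannot be told apart in this comparison.

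THI and CTD are neonicotinoids, insecticides that activate nicotinic acetylcholine receptors of the nervous system. In the liver, foreign compounds of many kinds activate the nuclear receptors CAR and PXR, which raise transcription of cytochrome P450 genes of the Cyp2b and Cyp3a families, of conjugating enzymes and of transporters. CAR activators are also known to enlarge the rodent liver and to bring hepatocytes into the cell cycle. Samples here are whole liver tissue, in which fewer cells of a type and less RNA per cell cannot be told apart.

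Library totals over all 31 rats ran from 31820322 to 101230067 counts with a median of 40989382. The THI+CTD libraries held 35782839 to 47095895 counts and the CTD libraries 31820322 to 38435675. A two-sided exact permutation test did not resolve a difference in totals (p = 0.11, smallest possible p 0.029 over 35 regroupings). Mitochondrially encoded genes took 1.33% to 1.57% of counts in THI+CTD, 1.53% to 1.99% in CTD and 0.882% to 1.51% in the controls (exact permutation p = 0.057 for THI+CTD against CTD). The share of reads that mapped to a single site was lower in each CTD library than in each THI+CTD library according to the mapping summary of the study. The CTD libraries also stood apart in 1 entry for 5S ribosomal RNA. The summed level of 47 entries named 5S_rRNA was 2.32 to 4.37 CPM (counts scaled to the same library size) in CTD, 0.512 to 0.699 CPM in THI+CTD and 0.779 to 1.21 CPM in the controls. Most of the sum in CTD came from ENSRNOG00000049144, at 2.78, 2.07 and 3.88 CPM in CTD and 0.241, 0.0446, 0.192 and 0.278 CPM in THI+CTD. It was the only 1 of the 47 entries to pass the edgeR test between these groups. A gene without a symbol, ENSRNOG00000048890, was at 380, 1260 and 663 CPM in the CTD rats and at 16.9, 18.3, 8.50 and 5.44 CPM in the THI+CTD rats (log2 fold change -5.96, SE 1.40, edgeR adjusted p = 0.0127). In the controls it ranged from 2.62 to 230 CPM, and it reached 225 CPM in a THI rat and 227 CPM in an IMZ rat. The part of these measures in the gene-level results below was not tested.

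With edgeR's quasi-likelihood test and Benjamini-Hochberg adjustment over 19904 genes (threshold 0.05), 531 genes were differentially expressed (DEGs) between THI+CTD and CTD, which is 2.67% of the genes tested. Of these, 331 were up-regulated (1.66%) and 200 were down-regulated (1.00%) in THI+CTD relative to CTD. Most changes were of moderate size, with a median log2 fold change of 0.56 among the up-regulated and -0.51 among the down-regulated DEGs, and 71 DEGs exceeded a log2 fold change of 1 in size. The median over all genes tested was 0. In 502 of the 531 DEGs every THI+CTD rat lay on one side of every CTD rat, and the same held for 2078 of all genes (10.4%), with THI+CTD above CTD in 5.74% and below it in 4.70%. The number of DEGs depended on single animals. It was 313 without CTD replicate 1, with 210 up- and 103 down-regulated, and the down-regulated DEGs numbered 131 without CTD replicate 3 and 126 without THI+CTD replicate 2. In all 7 fits that left out 1 rat, 185 of the 531 DEGs (34.8%) were called, of which 134 were up-regulated and 51 down-regulated. When the 2 groups were fitted alone, without the other 24 libraries to estimate the spread, 99 genes were called.

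**Figure D1:**
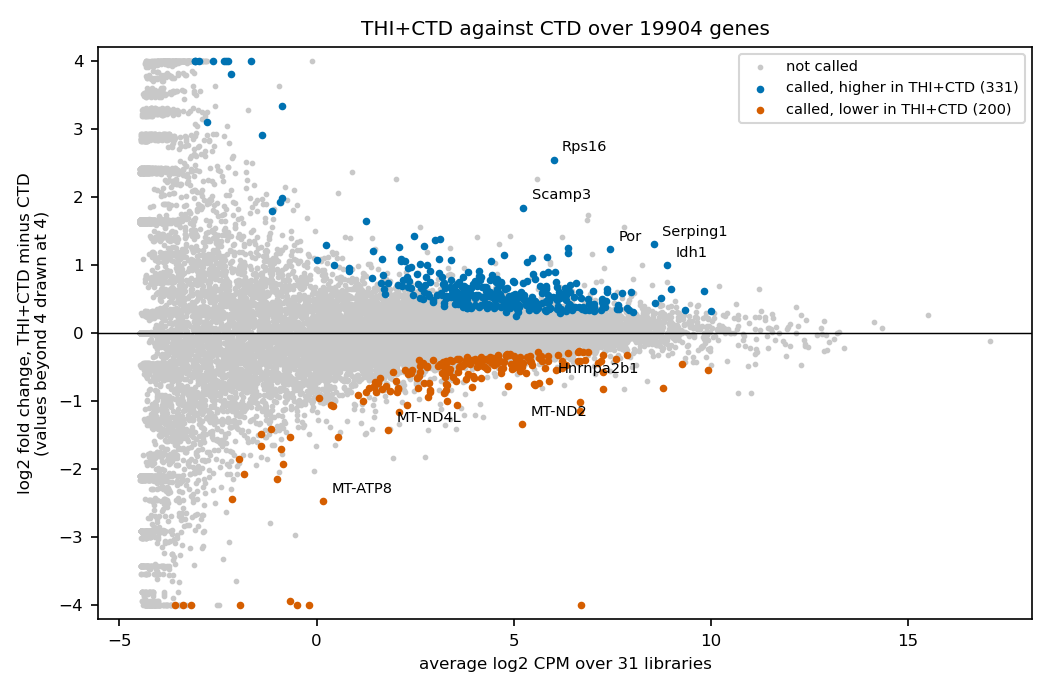
Each point is 1 of 19904 genes, plotted by its average log2 CPM over 31 libraries (horizontal) and its log2 fold change of THI+CTD minus CTD (vertical, values beyond 4 drawn at 4). Blue points are the 331 DEGs higher in THI+CTD and orange points the 200 DEGs lower, most of them within 1 log2 unit of 0, with Rps16 at 2.54 and MT-ATP8 at -2.47 among the farthest expressed genes.

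Over the DEGs as a whole, the CTD rats stood farther from the controls than the THI+CTD rats did. Over the 331 up-regulated DEGs the median log2 fold change from control was 0.06 in THI+CTD and -0.52 in CTD. Over the 200 down-regulated DEGs it was -0.08 in THI+CTD and 0.47 in CTD. These values share the 8 control libraries and the same treated rats as the direct comparison. In 284 of the 531 DEGs (53.5%), all 3 CTD rats lay beyond all 28 other libraries of the series, 187 of them on the low side and 97 on the high side, against 480 genes (2.41%) over all genes tested. Relative to the 24 libraries of the other 5 groups alone, the CTD rats lay outside in 290 of the DEGs (54.6%) and in 639 of all genes (3.21%), and the THI+CTD rats in 3 of the DEGs (0.565%) and in 20 of all genes. The DEGs were chosen with the CTD rats, and against the 28 libraries also with the THI+CTD rats, so these shares are a description. The 4 THI+CTD rats lay beyond all 27 other libraries in 3 of the DEGs and in 8 of all genes tested (0.0402%). In no other group did more than 16 genes show this, although a group of 3 rats meets such a criterion more easily than one of 4 or 8.

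**Figure D2:**
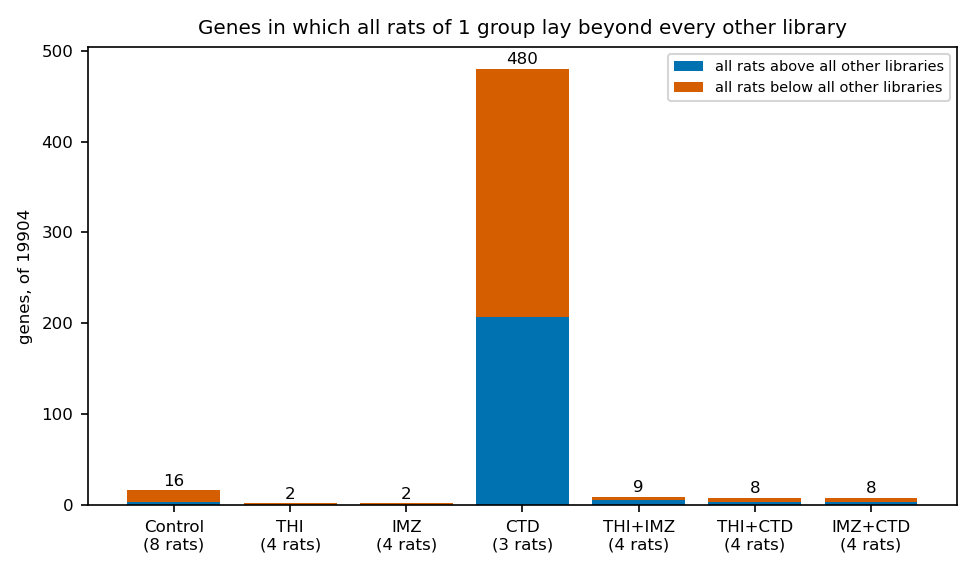
Bars give the number of genes, of 19904, in which all rats of a group lay above (blue) or below (orange) every other library of the series. The CTD group reached 480 genes, 207 above and 273 below, and the other 6 groups between 2 and 16.

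The DEG with the smallest adjusted p was Scamp3, which encodes a secretory carrier membrane protein of the endosomal system. It was at 38.3, 42.5, 45.3 and 44.4 CPM in THI+CTD and at 11.2, 11.9 and 12.6 CPM in CTD, a log2 fold change of 1.84 (SE 0.10, edgeR adjusted p = 9.04e-14). The controls ranged from 35.4 to 44.7 CPM, so 3 of the mixture rats lay in the control range and 1 just above it, while the CTD group lay below it. Serping1, the C1 inhibitor of the complement cascade, was at 416, 369, 365 and 407 CPM in THI+CTD and at 180, 148 and 146 CPM in CTD (log2 fold change 1.30, SE 0.11, adjusted p = 2.13e-09). All 24 libraries of the other 5 groups held between 341 and 478 CPM. Both genes were called in each of the 7 fits without 1 rat.

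The same arrangement, with THI+CTD near control and CTD below every other library, held for further genes among the 10 largest up-regulated DEGs. Crkl, an adapter protein of receptor tyrosine kinase signalling, was at 10.4, 9.08, 9.94 and 11.5 CPM in THI+CTD and at 4.01, 4.76 and 3.05 CPM in CTD (log2 fold change 1.37, adjusted p = 2.91e-08). Elp5, a subunit of the Elongator complex that modifies transfer RNA, was at 8.02, 7.92, 8.09 and 11.3 CPM against 3.90, 3.70 and 2.68 CPM (log2 fold change 1.36, adjusted p = 1.74e-07). Mrpl40, a protein of the mitochondrial ribosome, was at 7.23, 7.05, 7.32 and 6.94 CPM against 2.89, 2.58 and 3.32 CPM (log2 fold change 1.28, adjusted p = 2.86e-06). That the groups did not overlap in these genes was a condition of the rule that selected them. Rab27a, a small GTPase of vesicle release, and the transporter gene Slc10a7 had log2 fold changes of 1.64 (SE 0.31) and 1.26 (SE 0.13), and both were called in all 7 fits without 1 rat.

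The largest difference among the up-regulated genes of this rule belonged to Rps16, a protein of the small ribosomal subunit, with 69.9, 65.3, 52.95 and 77.1 CPM in THI+CTD and 20.0, 7.16 and 6.86 CPM in CTD (log2 fold change 2.54, SE 0.26, adjusted p = 1.21e-07). Ribosomal protein genes have processed copies elsewhere in the genome, and reads that fit more than 1 site were not counted, so the level of Rps16 is uncertain. The median log2 fold change of 99 cytosolic ribosomal protein entries tested was -0.01. Of these entries, 4 were up-regulated and 4 down-regulated, against 1.66% and 1.00% of all genes tested. The other up-regulated ones were Rpl7l1 (0.54, adjusted p = 0.00152), Rps28 (0.39) and Rps15 (0.39), each with the same reservation, and the calls of Rps28 and Rps15 were lost without CTD replicate 1 and that of Rps15 also without CTD replicate 2 (adjusted p up to 0.0977 and 0.0943). The down-regulated entries were Rpl22 (-0.35), Rpl22l1 (-0.71) and 2 entries named Rps24 (-0.27 and -0.49), named after their values were seen, and without CTD replicate 3 no ribosomal protein gene was called in this direction. The summed level of the list was 8340 to 9440 CPM in THI+CTD and 8350 to 9470 CPM in CTD.

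Metabolic enzymes of the hepatocyte were found among the up-regulated DEGs. These genes were picked after their values were seen. Idh1, the cytosolic isocitrate dehydrogenase that supplies NADPH, was at 513, 493, 486 and 454 CPM in THI+CTD and at 223, 262 and 246 CPM in CTD (log2 fold change 1.00, SE 0.12, adjusted p = 1.67e-06). No library outside the CTD group was below 416 CPM. Ephx2, the soluble epoxide hydrolase, was at 52.3, 46.4, 43.3 and 54.7 CPM against 23.3, 23.6 and 25.1 CPM (log2 fold change 1.04, adjusted p = 2.24e-06). The difference was smaller for Aldoa, an aldolase of glycolysis, at 53.7, 60.4, 60.5 and 68.5 CPM against 44.7, 40.7 and 45.7 CPM (log2 fold change 0.48, adjusted p = 0.000522). All 3 were called in each fit without 1 rat, whereas the call of Mdh2, mitochondrial malate dehydrogenase (log2 fold change 0.50), was lost without CTD replicate 1 (adjusted p = 0.0657). Aldoa was not called in every other alternative fit (adjusted p up to 0.103).

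**Figure D3:**
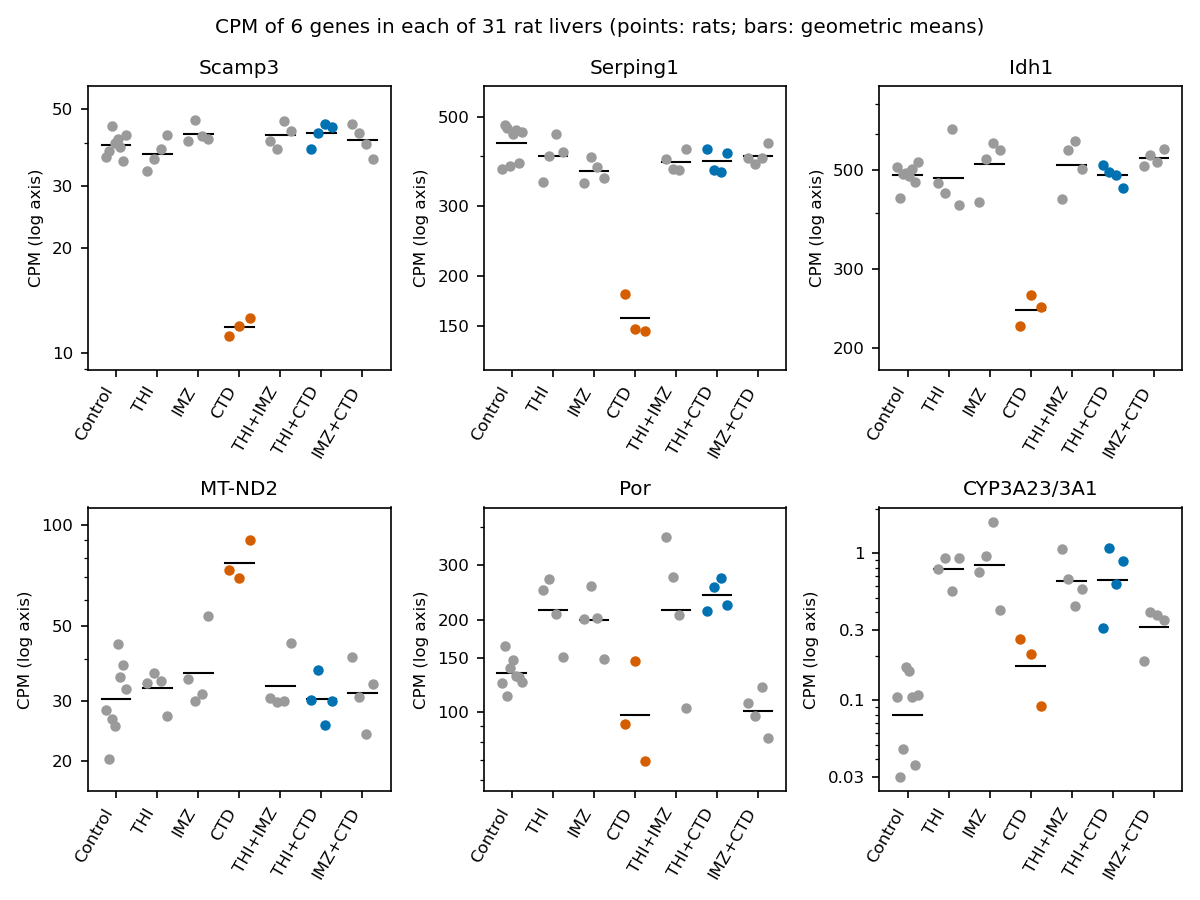
Each point is the CPM of a gene in 1 of 31 rats on a log axis, by group, and black bars are geometric means of the group. For Scamp3, Serping1 and Idh1 the 3 CTD rats (orange) lie below all others, for MT-ND2 at 69.4 to 90.1 CPM they lie above all others, and for Por and CYP3A23/3A1 the THI+CTD rats (blue) lie above the CTD rats.

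Genes of the respiratory chain are encoded in part by the mitochondrial and in part by the nuclear genome. All 13 mitochondrially encoded protein genes tested had lower levels in THI+CTD than in CTD, and 9 of them were DEGs, with a median log2 fold change of -0.82. Of 77 nuclear-encoded genes of oxidative phosphorylation, 5 were up-regulated and 0 down-regulated, with a median of 0.06, and the difference between the lists was not tested. Over all genes tested, 1.66% were up-regulated and 1.00% down-regulated. MT-ND2, a core subunit of complex I, was at 30.3, 37.0, 25.5 and 30.04 CPM in THI+CTD and at 73.4, 69.4 and 90.1 CPM in CTD (log2 fold change -1.34, SE 0.21, adjusted p = 0.000168). The controls ranged from 20.3 to 44.2 CPM, so the CTD rats lay above them and the THI+CTD rats among them.

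In the complex I genes ND3, MT-ND4 and MT-ND4L all CTD rats also lay above all THI+CTD rats. For MT-ND4 and MT-ND4L this was a condition of their selection. ND3 was at 153, 171, 141 and 148 CPM in THI+CTD and at 271, 251.2 and 289 CPM in CTD (log2 fold change -0.82, adjusted p = 0.000114), with 94.8 to 152 CPM in the controls, so that 2 mixture rats lay just above the controls. MT-ND4 was at 83.9, 109, 79.7 and 76.9 CPM against 170, 167 and 240 CPM (log2 fold change -1.14, adjusted p = 0.00102). MT-ND4L and MT-ATP8, which encodes a small subunit of ATP synthase, showed -1.43 and -2.47 on the log2 scale, but both overlap a neighbouring gene (MT-ND4 and MT-ATP6), and MT-ATP8 had no more than 6.03 CPM in any of the 7 rats. MT-ND5 (-1.01) and MT-ND6 (-0.998), the latter on the opposite strand of the genome, lost their calls without CTD replicate 3, and MT-ND6 also without THI+CTD replicate 2 (edgeR adjusted p up to 0.0622 and 0.0603). The remaining DEGs of the list were the ATP synthase gene MT-ATP6 (-0.81) and the cytochrome oxidase gene MT-CO3 (-0.54). Members not called included MT-CO2, a further cytochrome oxidase gene, at a log2 fold change of -0.22 (adjusted p = 0.469), ND1 at -0.37 (adjusted p = 0.273) and CYTB at -0.51 (adjusted p = 0.141). Without CTD replicate 3 the list held 5 DEGs. The summed level of the 13 genes was 12100 to 15600 CPM in THI+CTD, 15200 to 19400 CPM in CTD and 8700 to 15300 CPM in the controls.

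Among the nuclear-encoded genes, Ndufb7, an accessory subunit of complex I, was at 43.4, 41.3, 44.1 and 39.5 CPM in THI+CTD and at 19.4, 25.1 and 24.9 CPM in CTD (log2 fold change 0.86, SE 0.11, adjusted p = 8.69e-06). All 28 libraries outside the CTD group lay at or above 39.5 CPM. The complex I subunits Ndufa3 (0.48), Ndufa9 (0.48) and Ndufa11 (0.34) and the ATP synthase subunit Atp5j (0.42) were also up-regulated, of which Ndufa9 lost its call without CTD replicate 1 or 3 (adjusted p up to 0.123). Without CTD replicate 1 the list held 3 up-regulated and 1 down-regulated member and a median of -0.01, and without CTD replicate 3 it held 3 up-regulated members.

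Down-regulated DEGs outside the mitochondrial genome included regulators of RNA. Fbl, fibrillarin, the methyltransferase of ribosomal RNA, was at 3.45, 4.15, 3.92 and 5.82 CPM in THI+CTD and at 9.99, 9.07 and 7.91 CPM in CTD (log2 fold change -1.05, adjusted p = 4.73e-05). Ccar1, a coactivator that takes part in cell cycle control and apoptosis, was at 3.69, 3.43, 3.09 and 3.77 CPM against 8.40, 7.60 and 7.29 CPM (log2 fold change -1.15, adjusted p = 3.78e-05). Both were called in every fit without 1 rat. Snx10, a sorting nexin of endosomes, and Sema3a, a secreted axon guidance ligand, showed -1.06 and -1.08 at 0.554 to 2.39 CPM over the 7 rats, and both calls were lost without CTD replicate 1, that of Snx10 also without THI+CTD replicate 2 and that of Sema3a also without CTD replicate 3 or THI+CTD replicate 1 or 4 (adjusted p up to 0.0798 and 0.0672).

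In some DEGs of the direct comparison the mixture group itself also lay away from the controls. Hnrnpa2b1, an RNA-binding protein of splicing and transport, was at 55.0, 48.6, 49.1 and 48.9 CPM in THI+CTD, at 75.9, 79.9 and 91.4 CPM in CTD and between 56.5 and 71.3 CPM in the controls. Its log2 fold change between the treated groups was -0.71 (SE 0.08, adjusted p = 2.02e-06), made up of -0.32 from control in THI+CTD (adjusted p = 0.00491) and 0.39 in CTD (adjusted p = 0.000392). Eif5b, a translation initiation factor, showed the same arrangement with -0.79 between the treated groups, -0.34 for THI+CTD from control and 0.45 for CTD from control. These 2 genes were picked after their values were seen. The 3 DEGs in which all THI+CTD rats lay beyond all 27 other libraries were Camsap3, Git1 and ENSRNOG00000049703. Camsap3, a protein that binds the minus ends of microtubules, was at 15.0, 12.96, 12.6 and 15.4 CPM in THI+CTD and at 8.01, 10.2 and 8.80 CPM in CTD (log2 fold change 0.63, adjusted p = 0.00271), with 8.11 to 12.3 CPM in the 24 libraries of the other groups. Git1, an Arf GTPase-activating scaffold protein, was at 24.9, 26.6, 27.4 and 25.6 CPM against 19.2, 24.4 and 16.95 CPM (log2 fold change 0.37), and its call was lost in 4 of the 7 fits without 1 rat, CTD replicate 1 or 3 and THI+CTD replicate 2 or 3 (adjusted p up to 0.207). ENSRNOG00000049703, with a log2 fold change of -1.52, lost its call without CTD replicate 3 (adjusted p = 0.101).

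Part of the genes of the response to foreign compounds were called against control in each group, and fewer between the groups. Of 25 entries tested in the list of CAR and PXR targets, 2 were up-regulated and 0 down-regulated between THI+CTD and CTD. The shares over all genes tested were 1.66% and 1.00%, and the median log2 fold change of the list was 0.29. Against control, 15 of the entries were called in THI+CTD, 10 in CTD and 14 in THI alone, with medians of 0.93, 0.89 and 1.03. The shares of all genes called against control are not given here. Among these groups the study, which used DESeq2, reports the most DEGs in CTD and the fewest in THI alone. The counts of entries called can therefore not be compared directly between groups. The mean log2 level of the list over the control mean was 1.48, 1.75, 1.64 and 1.75 in the THI+CTD rats and 1.09, 1.72 and 1.18 in the CTD rats. The phenobarbital-inducible P450 genes Cyp2b1 and Cyp2b2 were raised from control in both groups but varied widely among rats. Cyp2b1 was at 77.3, 403, 200 and 217 CPM in THI+CTD and at 13.99, 179 and 20.9 CPM in CTD, and did not exceed 0.998 CPM in any control. The ranges of the 2 groups overlapped, and the log2 fold change of 1.66 had an SE of 0.92 (adjusted p = 0.406). Cyp2b2 was at 272, 525, 408 and 310 CPM against 117, 421 and 212 CPM (log2 fold change 0.60, SE 0.54, adjusted p = 0.659). Cyp2b1 and Cyp2b2 are close in sequence, so reads that fit both were not counted.

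Por, the NADPH-dependent reductase that supplies electrons to microsomal P450 enzymes, was a DEG. It was at 213, 256, 272 and 223 CPM in THI+CTD and at 91.6, 147 and 69.2 CPM in CTD, with 113 to 165 CPM in the controls and 249, 270, 209 and 151 CPM in THI alone. The log2 fold change between the mixture and CTD was 1.23 (SE 0.27, adjusted p = 0.00709). Relative to control it was 0.84 in THI+CTD (adjusted p = 0.0122) and -0.39 in CTD (adjusted p = 0.32). Por ranged from 149 to 258 CPM in IMZ, from 103 to 370 CPM in THI+IMZ and from 82.3 to 121 CPM in IMZ+CTD. The call was lost without CTD replicate 1 or 3 (adjusted p up to 0.073). The second DEG of the list, an entry named CYP3A23/3A1 (ENSRNOG00000032560), was at 0.313, 1.09, 0.617 and 0.886 CPM against 0.260, 0.207 and 0.0923 CPM (log2 fold change 1.93, SE 0.53, adjusted p = 0.0379). It is a low-count entry that shares its name with ENSRNOG00000047745, for which the difference was 0.93 (adjusted p = 0.278), and its call was lost in 6 of the 7 fits without 1 rat, that without THI+CTD replicate 1 being the exception (adjusted p up to 0.157). Neither DEG of the list was called without CTD replicate 1 or without CTD replicate 3.

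Other genes that the study followed by qPCR were not DEGs between the 2 groups, although most were DEGs against control in both. Abcc3, an efflux pump for conjugates, was at 65.8, 86.9, 66.2 and 96.8 CPM in THI+CTD and at 40.6, 60.03 and 50.3 CPM in CTD, against a control median of 9.38 CPM. The groups did not overlap, but the log2 fold change of 0.65 (SE 0.30) did not pass the test (adjusted p = 0.281). Aldh1a1, a retinaldehyde dehydrogenase, was at 402, 549, 465 and 568 CPM against 253, 489 and 341 CPM (log2 fold change 0.46, SE 0.31, adjusted p = 0.525). Mme, the membrane protease neprilysin, was at 16.05, 14.9, 17.9 and 16.5 CPM against 6.89, 20.6 and 6.37 CPM, with at most 0.83 CPM in the controls (log2 fold change between groups 0.53, SE 0.43, adjusted p = 0.614). Among the genes below control in both groups, Ky, a peptidase gene of muscle, showed 0.80 (SE 0.40) and Eln, elastin, -0.12 (SE 0.34), neither past the test. Cyp7a1, the rate-limiting enzyme of bile acid synthesis, was at 108, 110, 132 and 46.6 CPM in THI+CTD and at 85.9, 161 and 41.3 CPM in CTD, and the log2 fold change of 0.05 had an SE of 0.60. Cyp7a1 did not pass the edgeR test against control either (adjusted p = 0.184 in THI+CTD and 0.151 in CTD). The study, which used DESeq2, lists it as significantly down-regulated from control in both groups.

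No other xenobiotic list held a DEG, beside 2.67% DEGs over all genes tested. None of 31 NRF2 target entries (median 0.10), 8 AHR targets (median -0.12), 25 entries for xenosensor receptors and partners (median 0.08) or 20 uptake and efflux transporters (median 0.07) passed the test. Cyp1a1, the classical AHR target, was at 11.03, 16.5, 9.82 and 9.67 CPM in THI+CTD and at 44.4, 9.28 and 27.4 CPM in CTD (log2 fold change -1.20, SE 0.80, adjusted p = 0.506). At an unadjusted p under 0.05 the 4 lists held 4, 0, 5 and 1 entries. None of 14 nicotinic acetylcholine receptor subunits was called (median 0.02, or 0.63 without CTD replicate 2, and 0 at an unadjusted p under 0.05). Of these, 5 had 0 counts in all 7 libraries, and the list summed to 3.75 to 5.01 CPM in THI+CTD and 2.18 to 4.76 CPM in CTD.

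Most genes of cell division were DEGs against control in both groups (48 of 59 in THI+CTD and 56 of 59 in CTD). The shares of all genes called against control are not given here. The study, which used DESeq2, reports more DEGs in CTD than in THI+CTD, so the counts of the groups cannot be compared directly. Of 59 members tested, 58 had a lower fitted level in THI+CTD than in CTD, with a median log2 fold change of -0.91. None passed the adjusted test, beside 2.67% of all genes tested. An unadjusted p under 0.05 was reached by 17 members, beside 3026 of all 19904 genes. DESeq2's Wald test and edgeR's newer method each called 1 member. Against control the median was 1.97 in THI+CTD, 2.85 in CTD and -0.03 in THI alone. One animal carried much of the difference between the 2 groups: without CTD replicate 1 the median was -0.13. THI+CTD replicate 4 was the lowest of the mixture rats. The mean log2 level of the list over the control mean was 1.88, 2.09, 1.97 and 0.74 in the THI+CTD rats and 3.39, 2.03 and 1.70 in the CTD rats, so that the groups overlapped.

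Top2a, the DNA topoisomerase of dividing cells, was at 15.9, 14.8, 16.3 and 4.53 CPM in THI+CTD and at 57.8, 18.6 and 16.5 CPM in CTD, with 1.33 to 5.12 CPM in the controls (log2 fold change -1.26, SE 0.53, adjusted p = 0.229). Cdk1, the kinase that drives mitosis, was at 4.36, 3.61, 3.70 and 1.65 CPM against 13.01, 5.09 and 2.77 CPM (log2 fold change -1.06, SE 0.48, adjusted p = 0.268). Mad2l1, a component of the spindle checkpoint and the member with the smallest p, was at 3.23, 2.52, 2.96 and 1.80 CPM against 8.64, 3.26 and 3.20 CPM (log2 fold change -0.94, SE 0.29, adjusted p = 0.0761). In each of these genes CTD replicate 1 was the highest of the 7 rats. Outside the list, and picked after the values were seen, the condensin subunit Smc2 was down-regulated at -0.83 (adjusted p = 0.0389), with 11.1, 11.8, 13.3 and 8.50 CPM against 31.8, 17.5 and 10.4 CPM, and the call was lost in 4 of the 7 fits without 1 rat, among them that without CTD replicate 1 (adjusted p = 0.57).

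Promoters of this gene group are known for 2 short elements, the CCAAT box bound by NF-Y and the cell cycle genes homology region (CHR) bound by the DREAM and MuvB complexes. The RefSeq promoter table (GRCr8, from 250 bases before to 50 bases after the transcript start) held 50 of the cell division genes. CCAAT, on either strand, was present in 74% of these promoters and in 37.5% of all 33469 promoters. TTTGAA, the CHR, was present on either strand in 68% and in 18.3%, and both elements together in 54% and in 7.41%. The DNA replication list matched 44 promoters, of which 59.1% held CCAAT and 11.4% held TTTGAA. The matches are a description of the letters in these windows only. The promoters of Cdk1 and Top2a, which hold both elements, and of Mad2l1, which holds the CHR alone, are printed 5′ to 3′ in the direction of the gene, with the matches in capitals. A match on the other strand reads ATTGG for the CCAAT box and TTCAAA for the CHR.
Cdk1, chr20:19265043-19265342, plus strand: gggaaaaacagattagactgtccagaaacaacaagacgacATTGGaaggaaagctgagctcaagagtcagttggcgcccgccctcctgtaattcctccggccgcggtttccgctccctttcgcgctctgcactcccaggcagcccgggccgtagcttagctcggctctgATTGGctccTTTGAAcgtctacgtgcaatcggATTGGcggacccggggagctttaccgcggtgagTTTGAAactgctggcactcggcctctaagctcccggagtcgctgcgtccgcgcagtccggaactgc
Top2a, chr10:84473044-84473343, minus strand: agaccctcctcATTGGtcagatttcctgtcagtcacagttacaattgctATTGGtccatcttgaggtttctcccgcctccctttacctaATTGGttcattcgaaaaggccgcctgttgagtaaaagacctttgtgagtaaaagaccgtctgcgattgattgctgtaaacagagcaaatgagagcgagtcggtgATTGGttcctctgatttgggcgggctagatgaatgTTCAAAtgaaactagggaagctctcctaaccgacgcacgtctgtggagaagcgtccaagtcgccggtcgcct
Mad2l1, chr4:97236259-97236558, plus strand: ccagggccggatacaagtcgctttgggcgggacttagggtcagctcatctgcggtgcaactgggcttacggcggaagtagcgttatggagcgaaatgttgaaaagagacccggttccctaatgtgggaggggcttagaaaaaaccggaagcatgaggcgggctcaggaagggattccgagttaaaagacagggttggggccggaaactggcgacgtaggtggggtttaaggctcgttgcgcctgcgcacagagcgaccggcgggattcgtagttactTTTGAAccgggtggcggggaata

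DNA replication genes were arranged like those of cell division, with a smaller amplitude. None of 52 members was a DEG, beside 2.67% of all genes tested. An unadjusted p under 0.05 was reached by 14 members, beside 3026 of all 19904 genes. The median log2 fold change was -0.40, or -0.05 without CTD replicate 1. DESeq2's Wald test called 2 members and edgeR's newer method 1. Against control the median was 0.58 in THI+CTD and 0.83 in CTD. The member with the smallest p, the replication protein A subunit Rpa3, was at 13.1, 13.7, 11.4 and 10.7 CPM in THI+CTD and at 18.4, 14.8 and 15.9 CPM in CTD (log2 fold change -0.42, SE 0.12, adjusted p = 0.0521), with no overlap between the groups. None of 46 genes of DNA damage signalling and repair (median -0.18) and none of 45 histone entries (median -0.28) were called, with 4 and 7 at an unadjusted p under 0.05. Without CTD replicate 1 these medians were 0.03 and 0.14, and without CTD replicate 3 the histone median was -0.56. Over all genes tested, 1.66% were up-regulated and 1.00% down-regulated. Of 30 G1 cyclins, CDKs and E2F factors (median -0.16, or -0.36 without CTD replicate 3), Cdk4, the G1 kinase, was up-regulated (log2 fold change 0.30, adjusted p = 0.0211) and Cdkn1b, the CDK inhibitor p27, was down-regulated (-0.49, adjusted p = 0.0275), both lost without CTD replicate 1 or 3 and without THI+CTD replicate 2 or 3 (adjusted p up to 0.129 and 0.176).

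**Figure D4:**
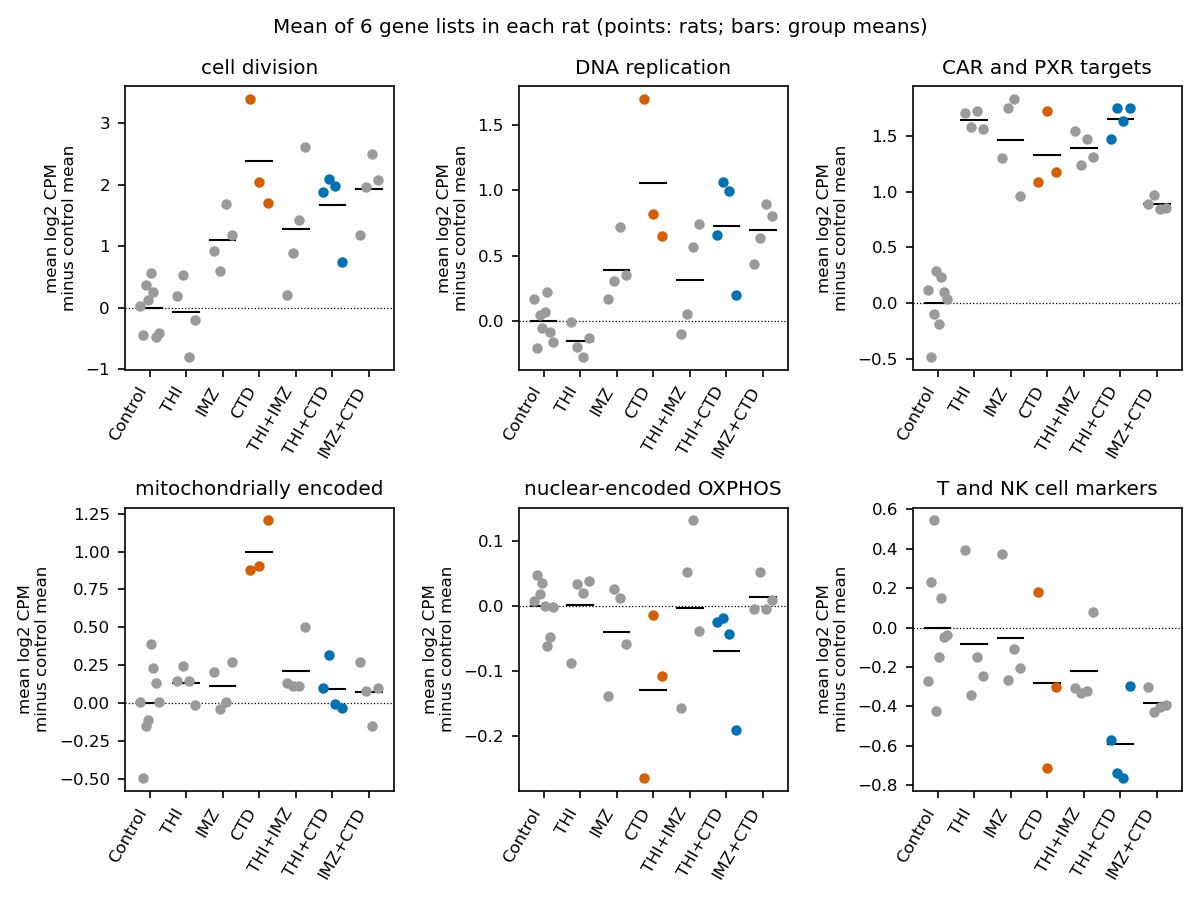
Each point is the mean log2 CPM of a gene list in 1 rat minus the mean of the controls, by group, and black bars are group means. For cell division the THI+CTD rats (blue) span 0.74 to 2.09 and the CTD rats (orange) 1.70 to 3.39, whereas for the mitochondrially encoded genes the CTD rats at 0.88 to 1.21 lie above all other groups.

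Of 25 p53 target genes, 2 were up-regulated, against 1.66% of all genes tested. Plk3, a kinase of the stress response, was at 6.12, 5.93, 5.13 and 10.1 CPM in THI+CTD and at 3.54, 2.20 and 1.85 CPM in CTD (log2 fold change 1.42, SE 0.31, adjusted p = 0.00773), and the call was lost without CTD replicate 3 (adjusted p = 0.0665). Pmaip1, the apoptosis factor Noxa, was called at 0.0639 to 0.156 CPM in THI+CTD and 0 to 0.026 CPM in CTD, levels of a few counts per library, and the call was lost without CTD replicate 2 or 3 and without THI+CTD replicate 1 or 2 (adjusted p up to 0.155). The median of the list was 0.05.

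Lists of intermediary metabolism each held at most 1 DEG, beside 2.67% DEGs over all genes tested. Among 20 genes of bile acid synthesis and control (median 0.03) this was Scp2, the sterol carrier protein of peroxisomes, which was at 941, 1030, 1010 and 780 CPM in THI+CTD and at 533, 679 and 618 CPM in CTD (log2 fold change 0.62, SE 0.11, adjusted p = 0.000711), the CTD rats lying below all 28 other libraries. For gluconeogenesis and fasting it was Foxo1, the insulin-regulated transcription factor, at 11.5, 14.1, 10.9 and 10.6 CPM against 7.34, 8.04 and 6.83 CPM (log2 fold change 0.67, adjusted p = 0.0152, up to 0.079 without CTD replicate 1 or 3 or THI+CTD replicate 2). This list of 21 genes had a median of 0.26 between the treated groups, with -0.26 in THI+CTD and -0.57 in CTD relative to control. Among 24 genes of cholesterol synthesis (median 0.11) it was Tm7sf2, a sterol reductase, at 495, 497, 424 and 402 CPM against 298, 334 and 322 CPM (log2 fold change 0.52, adjusted p = 0.0126, up to 0.0861 without CTD replicate 1 or THI+CTD replicate 2). None of 23 genes of lipogenesis (median 0.31), 29 PPARA targets (median 0.12), 13 and 7 clock genes peaking with Dbp and with Arntl (medians 0.15 and 0.02), 21 genes of the growth hormone axis (median 0) or 12 of thyroid hormone handling (median 0.06) passed the test. Between 0 and 7 members of these 6 lists reached an unadjusted p under 0.05. The lipogenesis median was 0.70 with 2 members called without CTD replicate 2, 0.10 without CTD replicate 3, 0.09 without THI+CTD replicate 2 and 0.08 without THI+CTD replicate 3.

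Genes for secreted plasma proteins included 36 complement and coagulation factors, with a list median of 0.04. Of these, 3 were up-regulated DEGs, against 1.66% of all genes tested. Beside Serping1 these were Masp2, the protease that starts the lectin pathway (246, 267, 250 and 230 CPM against 177, 204 and 198 CPM, log2 fold change 0.37, adjusted p = 0.00359), and F12, coagulation factor XII (1000, 919, 911 and 991 CPM against 730, 764 and 784 CPM, log2 fold change 0.33, adjusted p = 0.0465). The call of Masp2 was lost without CTD replicate 1 (adjusted p = 0.0527) and that of F12 in each fit that left out 1 rat (adjusted p up to 0.179). None of 22 acute phase genes (median -0.02) and none of 25 genes for albumin, apolipoproteins and carriers (median 0.14) were called, with 5 each at an unadjusted p under 0.05. Zonation lists held 1 DEG each, among 21 pericentral (median -0.11) and 30 periportal genes (median -0.02). Lhpp, a phosphatase of the pericentral list, was up-regulated at 0.44, and Slc25a15, the mitochondrial ornithine carrier of the urea cycle, was down-regulated at -0.32, each losing its call in 5 of the 7 fits without 1 rat, CTD replicate 1 among them (adjusted p up to 0.186 and 0.117). Among 19 genes of iron homeostasis (median 0.16), Tmprss6, a protease that restrains hepcidin, was up-regulated at 0.33 and lost its call in 5 of the 7 fits, CTD replicate 3 among them (adjusted p up to 0.118).

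Immune and stress genes gave few calls, beside 1.66% up- and 1.00% down-regulated over all genes tested. Stat2, a transcription factor of the interferon response, was at 126, 102, 103 and 112 CPM in THI+CTD and at 65.9, 87.6 and 78.4 CPM in CTD (log2 fold change 0.52, adjusted p = 0.00525, 0.0738 without CTD replicate 1), the only DEG among 32 interferon-stimulated genes (median 0.01). Traf6, a ubiquitin ligase of Toll-like receptor signalling, was at 11.1, 10.01, 9.56 and 12.1 CPM against 6.40, 8.01 and 3.57 CPM (log2 fold change 0.83, adjusted p = 0.00772, 0.078 without CTD replicate 3), the only DEG among 31 genes of its list (median -0.09). Tapbp, the peptide-loading factor tapasin, was up-regulated at 0.34 (adjusted p = 0.0305), the only DEG of 51 MHC and antigen presentation entries (median -0.04), and the call was lost in 4 of the 7 fits without 1 rat, CTD replicate 2 or 3 and THI+CTD replicate 1 or 2 (adjusted p up to 0.153). No DEG was found among 29 genes of ER stress (median 0.05), 19 heat shock chaperones (median 0), 27 immediate early genes (median 0.37), 38 proteasome entries (median -0.04), 41 collagen entries (median -0.19) or 22 genes of elastic fibres and smooth muscle (median -0.07). Between 2 and 10 members of these 6 lists had an unadjusted p under 0.05. The immediate early gene Fos was at 1.08, 8.45, 1.32 and 14.9 CPM in THI+CTD and at 0.936, 1.21 and 1.91 CPM in CTD (adjusted p = 0.0955).

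Cell type markers of the liver gave few calls, beside 2.67% DEGs over all genes tested. None of 15 hepatocyte markers passed the test (median -0.03), and they summed to 189000 to 240000 CPM in THI+CTD and 219000 to 237000 CPM in CTD, with no marker at 0 counts. Bmp2, an endothelial signal in iron control, was up-regulated at 0.67 (adjusted p = 0.0129, up to 0.109 without CTD replicate 2 or THI+CTD replicate 1) among 18 endothelial markers with a median of 0. Of 14 cholangiocyte markers, 1 passed the test, and the median of the list was 0.09, or 0.58 without CTD replicate 1. No marker was called among 20 for Kupffer cells and macrophages (median -0.19), 22 for T and NK cells (median -0.47), 14 for B and plasma cells (median -0.05), 15 for neutrophils (median -0.99), 10 for red blood cells (median -0.79), 16 for stellate cells and fibroblasts (median -0.10) and 13 for pancreas (median 0). Their counts at an unadjusted p under 0.05 ran from 0 to 4. Several of these medians rested on 1 rat. Without CTD replicate 1 the median was 0 for neutrophils, 0.04 for Kupffer cells and -0.26 for T and NK cells, and without CTD replicate 2 it was -0.86 for T and NK cells and -0.58 for neutrophils. Without CTD replicate 3 it was -0.54 for neutrophils and 0.15 for B and plasma cells. Without THI+CTD replicate 3 the red blood cell median was -1.78 and 2 members were called lower, and without THI+CTD replicate 2 the medians were -0.52 for red blood cells and -0.63 for neutrophils.

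The blood cell lists rested on low levels. T and NK cell markers summed to 19.2 to 24.1 CPM in THI+CTD, 23.3 to 30.5 CPM in CTD and 25.1 to 38.6 CPM in the controls, and neutrophil markers to 2.33 to 3.81, 3.26 to 4.97 and 2.61 to 8.75 CPM, with Elane and Ltf at 0 counts in all 7 libraries. Red blood cell markers summed to 36.5 to 223 CPM in THI+CTD, 160 to 196 CPM in CTD and 28.8 to 71.0 CPM in the controls, so the CTD rats lay above the controls and within the spread of the mixture rats. Pancreas markers summed to 55.3 to 171 CPM and 51.5 to 217 CPM, against 253 to 551 CPM in the controls, with Prss1, Cela2a, Ctrb1, Pnlip and both amylase entries (Amy2a3 and AMY2A3) at 0 counts in all 7 libraries. The part of these cells in the gene-level differences was not tested.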

How the data were processed

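Total RNA-Seq was carried out on the livers of 31 female rats. The authors prepared stranded total RNA libraries, aligned the reads with STAR against the rat assembly Rnor_5.0, and took per gene the number of reads with a unique position. The submitters' processing notes name FastQC 0.11.5, STAR 2.5.2b and DESeq2 1.15.1, and the annotation release and strand setting of the counting are not given in the sources used here. The deposited count table holds raw counts for 26312 genes. The deposited signal table holds the counts of 19904 genes divided by DESeq2 size factors, which was recomputed to a relative deviation of 5e-15 and not used for tests.

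Groups and replicate numbers were taken from the labels, and replicates are separate rats. edgeR 4.0.16 in R 4.3.3 was used with TMM scaling, the older quasi-likelihood method and 7 group means over 31 libraries, and p-values were adjusted by Benjamini-Hochberg with a threshold of 0.05. SE was obtained as log2 fold change over the root of the F statistic. CPM are scaled by TMM, and log2 CPM used a prior count of 2. On simulated counts of THI+CTD against CTD over 19284 genes, 86% of log2 changes of 1 and 98% of log2 changes of 2 were recovered, with 9 false calls. The changed genes were drawn from those with an average log2 CPM above 0. Recovery of smaller changes, or of changes in genes below that level, was not simulated. Alternatives included DESeq2 1.42.0, other filters and leaving out each rat.

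Named genes were the 10 largest DEGs in each direction with a symbol, an average log2 CPM above 0 and no overlap of groups, up to 4 DEGs (or else the 1 gene with the smallest p) of each of 49 lists, the genes the study measured by qPCR together with Cyp2b1 and Cyp2b2, and genes stated as picked after their values were seen. The comparison and the lists were chosen with earlier results of these data known. A few named genes are not reported here. Gene positions on Rnor_5.0 were not analysed here, and promoters are from RefSeq (GRCr8). Python 3 with matplotlib drew the plots.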

Additional observations from a re-analysis of the deposited data

Results flagged for a closer look

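In 9 of 142 gene and group pairs examined, 1 rat stood apart from the rest of its group by Dixon's criterion, which divides the gap to the nearest other rat by the range of the group. Chance alone marks about 1 in 20 groups. THI+CTD replicate 4 held 11.3 CPM of Elp5 against 7.92 to 8.09 CPM in the other 3 rats (ratio 0.939), and 4.53 CPM of Top2a against 14.8 to 16.3 CPM (ratio 0.924). The same rat was lowest of the mixture group in the other cell division genes described. THI+CTD replicate 1 held 55.0 CPM of Hnrnpa2b1 against 48.6 to 49.1 CPM (ratio 0.926). THI+CTD replicate 2 held 3.70 CPM of the clock gene NR1D2 against 5.02 to 5.24 CPM (ratio 0.88), and THI+CTD replicate 3 held 0.468 CPM of ENSRNOG00000049703 against 0.771 to 0.847 CPM (ratio 0.838). Among the controls, replicate 7 held 4.03 CPM of Slc10a7 against 4.56 to 4.82 CPM (ratio 0.691), and replicate 4 held 25.2 CPM of Abcc3 against 6.97 to 10.98 CPM (ratio 0.647). Control replicate 2 held 0.724 CPM of Sema3a against 1.21 to 1.54 CPM (ratio 0.675) and 0.0302 CPM of Cyp2b1 against 0.305 to 0.998 CPM (ratio 0.586). The group of 3 CTD rats was too small for this criterion.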

How the results depend on the processing

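Between 457 and 705 genes were called with DESeq2 size factors, edgeR's newer method, no filter, filterByExpr, the thinned counts or, an alternative chosen after seeing the data, without the mitochondrially encoded genes. With filterByExpr 305 genes were down-regulated. DESeq2's Wald test called 936 genes (542 up- and 394 down-regulated, 520 shared with the 531), and the 2 groups fitted alone, with fewer samples to estimate the spread, called 99 (68 and 31, all shared). Leaving out 1 rat gave 313 to 585 DEGs, 210 to 361 up- and 103 to 224 down-regulated. Up-regulated genes made up 56.7% to 68.7% of the calls.

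The genes followed through these fits include some that are not described above. Of their calls, 44 were lost with the 2 groups alone, 30 without CTD replicate 1 and 27 without CTD replicate 3. Genes that were not called changed sign when 1 rat was left out. Cyp7a1 ranged from -0.316 to 0.643 and was -0.03, -0.316, -0.008 and -0.122 without CTD replicate 1 or 3 or THI+CTD replicate 2 or 3. Eln ranged from -0.265 to 0.041 and was 0.041 and 0.015 without CTD replicate 3 or THI+CTD replicate 4. The cause was not tested.

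With the replicate number as a block 438 genes were called (287 up- and 151 down-regulated, 411 shared). Deviations of rats with the same number correlated at 0.112, -0.002 and -0.28, and not every rat correlated best with its own number, so the numbers do not pair the rats. With 3 CTD rats, differences within the spread between rats, such as those of Cyp2b1 and the cell division genes, were not resolved.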

Other observations

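Further DEGs, picked after their values were seen, belonged to growth signalling and chromatin. Met, the receptor for hepatocyte growth factor, was at 141, 127, 133 and 140 CPM in THI+CTD and at 105, 91.3 and 104 CPM in CTD (log2 fold change 0.43, edgeR adjusted p = 0.00135). Kdm5b, a histone demethylase, was at 48.3, 38.2, 40.5 and 42.3 CPM against 26.1, 31.6 and 30.6 CPM (log2 fold change 0.52, adjusted p = 0.00134). Tgfbr2, a receptor for TGF-beta, was up-regulated at 0.38 (adjusted p = 0.00391). All 3 were called in every fit without 1 rat, but not in every other alternative fit (adjusted p up to 0.115, 0.0933 and 0.19). In none of them did the THI+CTD rats overlap with the CTD rats, as in 502 of the 531 DEGs. Ociad1, a protein of mitochondria and endosomes, was down-regulated, with 40.6, 45.1, 41.4 and 44.3 CPM in THI+CTD and 71.5, 70.3 and 76.2 CPM in CTD (log2 fold change -0.76, adjusted p = 4.92e-08), and was called in every fit without 1 rat. Among P450 genes outside the lists, Cyp39a1, an oxysterol hydroxylase, and Cyp2d4 were up-regulated at 0.65 and 0.76, both lost without CTD replicate 1 and Cyp2d4 also without CTD replicate 3 (adjusted p up to 0.0657 and 0.0594).

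The 2 directions of change differed in the length of the genes, taken as the span from start to end in RefSeq (GRCr8). Among 11297 genes with an average log2 CPM above 0, of which 95.3% matched by symbol, the median span was 25.5 kb. It was 19.8 kb for the up-regulated DEGs (97.9% matched) and 42.6 kb for the down-regulated DEGs (88.5% matched). When the matched genes were divided by span into 3 sets of nearly equal number, 3.73%, 2.65% and 2.31% were up-regulated from the shortest to the longest set, and 0.892%, 1.39% and 2.40% were down-regulated. The part of gene span or of RNA quality in the calls was not tested.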
